A study of Rattus norvegicus with 6 samples.

Results

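The platelet-derived growth factor (PDGF) family was followed in injured rat spinal cord as the 7 genes Pdgfa, Pdgfb, Pdgfc, Pdgfd, Pdgfra, Pdgfrb and Pdgfrl, taken by gene symbol from a table of 32623 genes. All 7 were found, with 14 listed transcripts, and all 7 reached the mean of 0.5 FPKM over the 6 libraries that was needed for a test. Levels are in FPKM, which scales fragments to gene length and library size, and so are per length. The genes were selected on results that included their FPKM values in ES against SCI, so those values are described here without a test.

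Poly(A) RNA came from spinal cord of female Wistar rats aged 8 weeks, all of a spinal cord injury model. The 3 libraries named ES were from injured rats given electrical stimulation, and the 3 libraries named SCI were from injured rats without it. How the cord was injured, at which segment, when it was sampled and how it was stimulated are not stated in the labels, and no uninjured cord was analysed here. The question was how RNA levels in injured cord differ with stimulation. The labels do not say whether each library is a separate rat, so every spread and every p-value below measures differences between these libraries, which may be technical.

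PDGF ligands are disulphide-linked dimers of A, B, C or D chains, and they act by bringing together receptor tyrosine kinases built from alpha and beta chains. The alpha receptor, encoded by Pdgfra, binds A, B and C chains, and the beta receptor, encoded by Pdgfrb, binds B and D chains. In the central nervous system Pdgfra is best known from oligodendrocyte precursor cells, which divide in response to A-chain dimers, and it is also made by fibroblasts of the meninges and vessel walls. Pdgfrb is known from pericytes, smooth muscle cells and fibroblasts, and B chains released by endothelium attract pericytes to vessels. Pdgfrl encodes a receptor-like protein with immunoglobulin-like domains and no kinase domain.

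The files hold no counts. If the smallest increments of transcript FPKM times length each stand for 1 read pair, the libraries held about 13900000 to 16200000 read pairs in ES and 16300000 to 18600000 in SCI. Correlations of log2(FPKM + 1) were 0.983 to 0.986 between libraries of 1 group and 0.962 to 0.965 across groups. In the test over all genes (limma on log2(FPKM + 1), Benjamini-Hochberg adjusted p under 0.05), 7088 of 15750 genes were called, which is 45.0%. Of all genes tested 17.4% were called higher in ES and 27.6% lower, and the median log2 change was -0.06. The split of 2747 higher and 4341 lower depended on scaling. It was 3414 and 3257 after quantile normalization, 4021 and 2975 after centring on the median, and 2067 and 5596 with all libraries brought to 1 total. These scalings moved the median of all genes to 0.01, 0.03 and -0.12.

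The 3 receptor genes were lower in ES than in SCI, with ratios of mean FPKM, ES over SCI, of 0.849 for Pdgfra, 0.680 for Pdgfrb and 0.216 for Pdgfrl. Among the ligand genes Pdgfb and Pdgfd were lower, at ratios of 0.843 and 0.806, and the libraries of the groups overlapped for Pdgfa and Pdgfc. In 5 of 7 genes every ES library lay below every SCI library, beside 34.6% of all genes tested, and in none did every ES library lie above, beside 21.9%. Of all genes 56.5% were apart in either direction. Nothing is read from these counts, because the genes were proposed with this comparison known. The median log2 change of the 7 genes was -0.23, and the authors' deposited table marked only Pdgfrl of the 7 as significant, beside 2.31% of its genes marked lower and 3.15% marked in either direction.

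**Figure D1:**
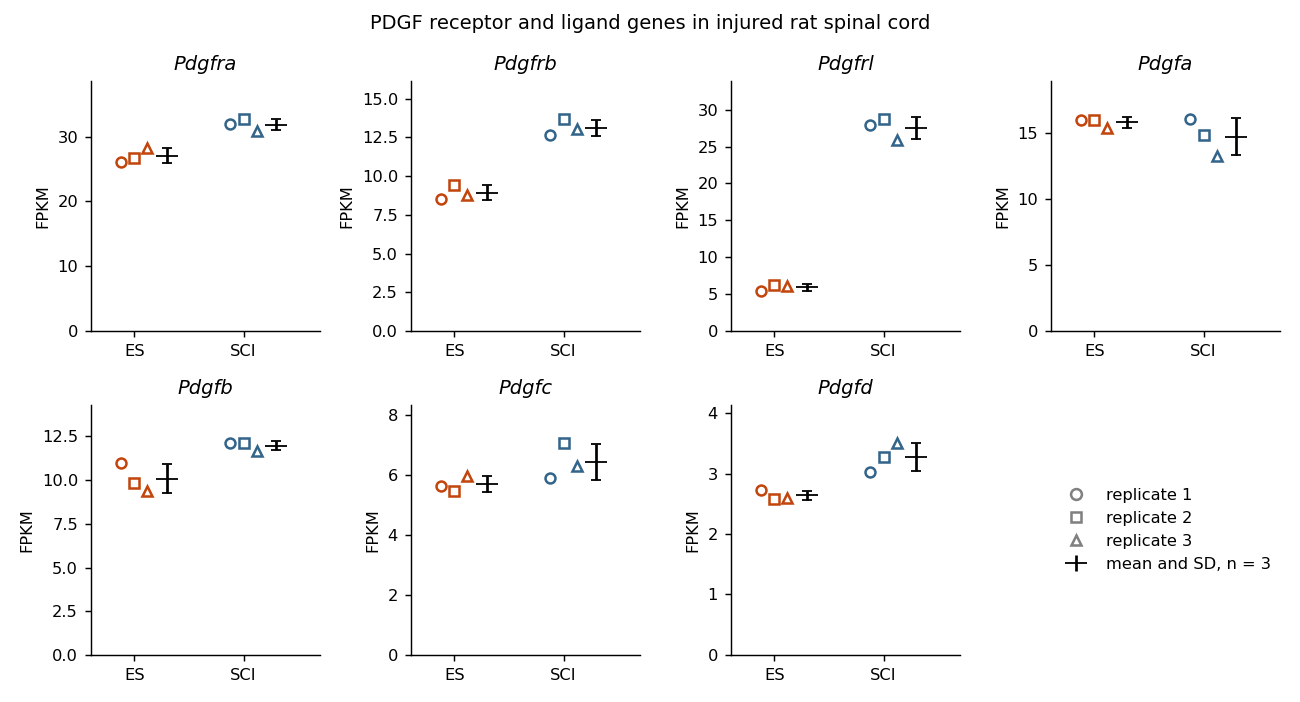
Each panel plots the FPKM of a PDGF gene (vertical axis, from 0) in the 3 ES and 3 SCI libraries, with the mean and SD of each group beside the points. The ES libraries of Pdgfrl lie between 5.42 and 6.28 FPKM and its SCI libraries between 25.9 and 28.7, while the libraries of Pdgfa and Pdgfc overlap between groups.

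Pdgfra, the alpha receptor gene (chromosome 14, 35527927 to 35581031 on the minus strand, in coordinates of the files, for which no source used here names a genome build), had the highest level of the family in both groups. Its level was 26.0, 26.8 and 28.3 FPKM in the ES libraries 1, 2 and 3, and 31.9, 32.7 and 30.9 FPKM in the SCI libraries 1, 2 and 3. The highest ES library lay 2.63 FPKM below the lowest SCI library. The means were 27.0 ± 1.17 FPKM in ES and 31.8 ± 0.876 in SCI (SD, n = 3 each), a ratio of 0.849. The log2 change was -0.23 ± 0.04 (SE); it is taken on log2(FPKM + 1), where changes of low genes come out too small. It was -0.14 after centring each library on its median and -0.30 with libraries brought to 1 total. The values rested on an estimated 2364 to 2979 read pairs per ES library and 3396 to 3752 per SCI library. Counting error at the fewest pairs is 2.06%, and the SD between libraries was 4.31% of the mean in ES and 2.75% in SCI.

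Pdgfrb, the beta receptor gene (chromosome 18, 56364620 to 56406381, plus strand), stood at 8.51, 9.45 and 8.78 FPKM in ES and at 12.6, 13.7 and 13.0 FPKM in SCI replicates 1 to 3. Every ES library was lower than every SCI library, with 3.17 FPKM between the nearest pair. The means were 8.91 ± 0.483 FPKM in ES and 13.1 ± 0.527 in SCI, a ratio of 0.680 and a log2 change of -0.51 ± 0.05. Of all genes tested, 11.0% had a more negative log2 change.

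The files list 3 transcripts of Pdgfrb, and all 3 were lower in ES, and the shortest took a larger share there. ENSRNOT00000086033, of 23 exons and 5370 bases, stood at 5.15, 6.30 and 5.60 FPKM in ES and at 7.51, 9.41 and 9.17 FPKM in SCI. ENSRNOT00000078764, of 22 exons and 3294 bases, which starts farther downstream at 56379890, stood at 5.81, 6.02 and 5.21 FPKM in ES and at 7.44, 7.18 and 6.30 FPKM in SCI. ENSRNOT00000068535, of 23 exons and 5389 bases, was a minor form at 0.288 ± 0.243 FPKM in ES and 0.933 ± 0.335 in SCI. The groups did not overlap for any of the 3, beside 29.7% of all transcripts tested that were lower in every ES library. As a share of the summed transcript FPKM of the gene, the 3294-base form took 51.6%, 48.7% and 46.0% in ES and 45.8%, 41.6% and 38.7% in SCI. The lowest ES share and the highest SCI share are 46.0% and 45.8%, so the groups were barely apart. Of the shares of all transcripts of genes with several forms, 10.2% were higher in every ES library and 20.4% were apart in either direction. The ranges of the forms overlap on the chromosome, and how reads were divided between them is set by the authors' processing.

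Pdgfrl, the receptor-like gene (chromosome 16, 54386288 to 54450426, minus strand), differed most. It stood at 5.42, 6.28 and 6.16 FPKM in ES and at 27.9, 28.7 and 25.9 FPKM in SCI replicates 1 to 3. The nearest ES and SCI libraries were 19.6 FPKM apart. The ratio of the means was 0.216 and the log2 change -2.04 ± 0.06, which ranked 28 from the most negative of 15750 genes tested. The values rested on an estimated 111, 139 and 146 read pairs in ES and 669, 696 and 708 in SCI. Counting error alone is 9.49% at the fewest pairs, above the SD of 7.74% of the mean between ES libraries. A single transcript of 6 exons and 1467 bases is listed, so the value does not depend on a division between forms.

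The level of Pdgfrl also changed the order of the family. In SCI it took place 2, below Pdgfra and above Pdgfa at 14.7 ± 1.41 FPKM. In ES it took place 5, at 5.95 ± 0.461 FPKM, where its range overlapped that of Pdgfc at 5.69 ± 0.262. The other genes kept the order Pdgfra, Pdgfa, then Pdgfrb and Pdgfb, then Pdgfc and Pdgfd. Pdgfb stood above Pdgfrb in ES with overlapping ranges, whereas in SCI Pdgfrb stood above Pdgfb without overlap and overlapped with Pdgfa.

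Pdgfb, the B chain gene (chromosome 7, 121214628 to 121232741, minus strand, 1 transcript), stood at 11.0, 9.86 and 9.40 FPKM in ES and at 12.1, 12.1 and 11.7 FPKM in SCI. The gap between the groups was 0.675 FPKM, smaller than the SD of 0.819 FPKM among the ES libraries. The log2 change was -0.23 ± 0.06, with -0.14 after centring on the median and -0.30 with libraries brought to 1 total. Pdgfd, the D chain gene (chromosome 8, 4440876 to 4669014, plus strand), was the lowest of the family, at 2.73, 2.58 and 2.60 FPKM in ES and 3.03, 3.27 and 3.51 FPKM in SCI. Its log2 change was -0.23 ± 0.07, with -0.08 after quantile normalization and -0.29 with libraries brought to 1 total, on an estimated 142 to 156 read pairs per ES library and 184 to 243 per SCI library. In both ligand genes every ES library thus lay below every SCI library in FPKM as deposited, and whether that held under other scalings was not computed. The size of the difference depended on scaling, and neither gene was called after quantile normalization or centring on the median.

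Pdgfa, the A chain gene (chromosome 12, 17734133 to 17755285, plus strand) and the mitogen of oligodendrocyte precursors, stood at 16.0, 16.0 and 15.4 FPKM in ES and at 16.1, 14.8 and 13.3 FPKM in SCI. The groups overlapped, the ratio of the means was 1.07 and the log2 change 0.10 ± 0.07. Pdgfc, the C chain gene (chromosome 2, 179952227 to 180128283, plus strand), stood at 5.65, 5.45 and 5.97 FPKM in ES and at 5.88, 7.07 and 6.30 FPKM in SCI. The groups overlapped through ES replicate 3 and SCI replicate 1, with a log2 change of -0.15 ± 0.07. Summed over the 4 ligand genes the level was 34.2 ± 1.07 FPKM in ES and 36.4 ± 1.42 in SCI, and the libraries overlapped.

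Of the 10 transcripts above 0 among the 4 genes with several forms, 3 had groups that did not overlap, beside 48.8% of all transcripts tested, and these were the 3 of Pdgfrb. For Pdgfa the 8-exon form ENSRNOT00000042117 took 65.0% ± 5.76 of the summed transcript FPKM in ES and 67.4% ± 6.28 in SCI. For Pdgfc the 2598-base form ENSRNOT00000082273 took 79.1% ± 1.80 in ES and 79.8% ± 5.24 in SCI. The major forms of these ligand genes thus held like shares in the groups, within the spread between libraries. For Pdgfd the 3234-base form ENSRNOT00000049325 took 0.0371%, 72.5% and 55.0% in ES replicates 1 to 3 and 21.8%, 15.5% and 8.18% in SCI, while the gene value varied by 3.09% between ES libraries. ENSRNOT00000076748, also of Pdgfd, was listed at 0 in all 6 libraries.

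**Figure D2:**
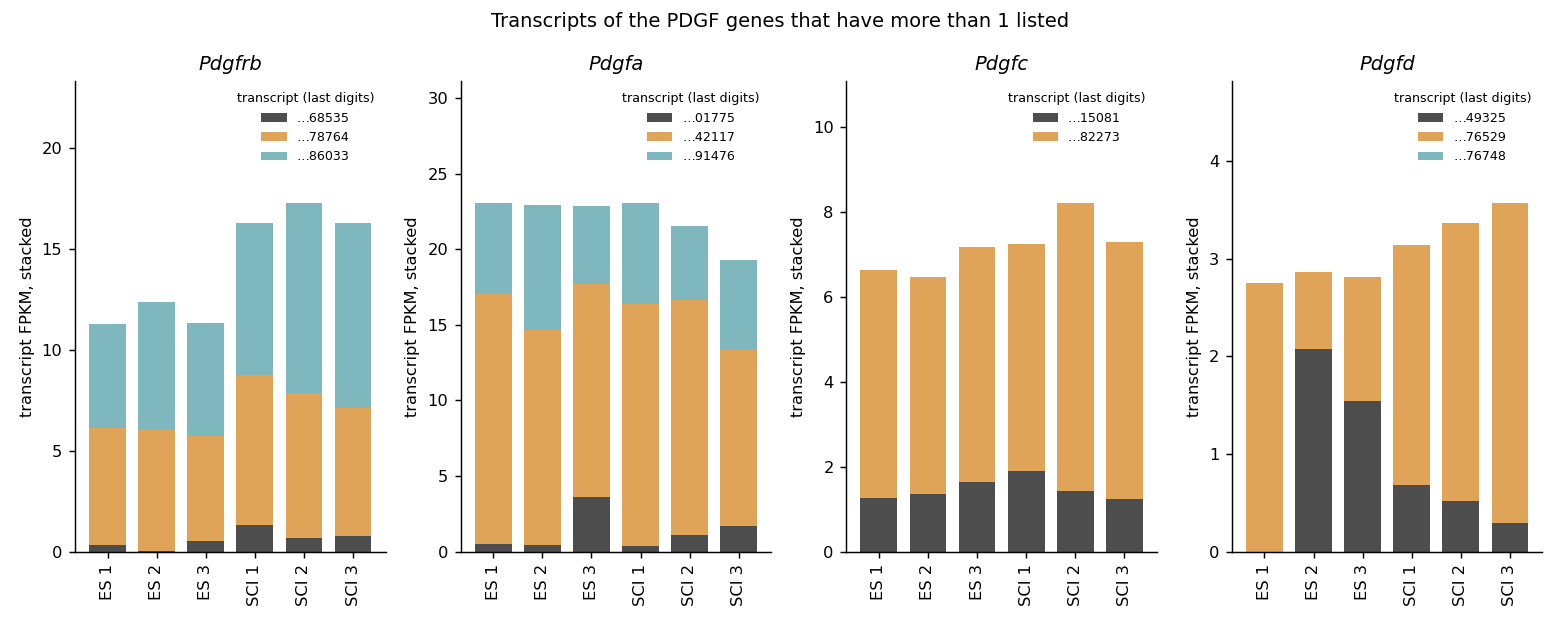
Bars stack the FPKM of each listed transcript (vertical axis, from 0) in every library for the 4 PDGF genes with more than 1 transcript. All 3 forms of Pdgfrb are lower in ES, and the division of Pdgfd between forms differs between ES replicate 1, at 0.0371% for the form at the base of the bar, and ES replicate 2, at 72.5%.

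Promoter windows of the genes that stood near a log2 change of -0.23 (Pdgfra, Pdgfb and Pdgfd), and of Pdgfa, whose groups overlapped, are printed for comparison. RefSeq's table for GRCr8 holds windows of 300 bases, from 250 before to 50 after the gene's start, for 5 of the 7 genes, and Pdgfrb and Pdgfrl are not among them. They were searched on both strands for the GC box GGGCGG, the CCAAT box CCAAT, the TATA box TATAAA and the CArG box, the site of serum response factor, and capitals mark each match. No 2 matches overlapped.
Pdgfra: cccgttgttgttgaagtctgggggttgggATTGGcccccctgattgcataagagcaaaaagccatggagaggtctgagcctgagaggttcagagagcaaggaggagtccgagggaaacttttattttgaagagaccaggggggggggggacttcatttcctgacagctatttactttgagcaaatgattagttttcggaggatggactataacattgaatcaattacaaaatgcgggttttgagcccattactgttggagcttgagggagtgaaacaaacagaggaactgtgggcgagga
Pdgfb: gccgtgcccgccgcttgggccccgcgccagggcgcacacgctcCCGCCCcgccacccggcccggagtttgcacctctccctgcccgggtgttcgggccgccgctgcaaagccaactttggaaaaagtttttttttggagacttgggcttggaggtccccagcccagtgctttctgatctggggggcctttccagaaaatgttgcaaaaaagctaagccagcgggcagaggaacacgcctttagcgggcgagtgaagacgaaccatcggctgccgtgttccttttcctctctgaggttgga
Pdgfd: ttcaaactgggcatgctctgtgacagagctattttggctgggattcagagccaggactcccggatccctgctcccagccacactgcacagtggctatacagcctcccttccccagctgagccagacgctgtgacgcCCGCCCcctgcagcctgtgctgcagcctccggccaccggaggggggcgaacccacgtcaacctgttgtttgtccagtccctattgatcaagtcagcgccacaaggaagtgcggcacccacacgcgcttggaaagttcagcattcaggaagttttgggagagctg
Pdgfa: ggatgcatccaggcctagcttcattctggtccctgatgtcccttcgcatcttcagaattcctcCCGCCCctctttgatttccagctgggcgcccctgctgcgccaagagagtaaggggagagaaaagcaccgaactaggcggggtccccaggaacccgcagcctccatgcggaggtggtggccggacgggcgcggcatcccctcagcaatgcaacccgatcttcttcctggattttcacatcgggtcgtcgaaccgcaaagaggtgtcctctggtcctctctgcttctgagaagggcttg
The Pdgfra window (chr14:33408467-33408766, minus strand) held 1 CCAAT box, at bases 30 to 34 of the window, and no GC box. The windows of Pdgfb (chr7:113438294-113438593, minus strand), Pdgfd (chr8:11773258-11773557, plus strand) and Pdgfa (chr12:20759116-20759415, plus strand) each held 1 GC box, at bases 44 to 49, 137 to 142 and 64 to 69. The window of Pdgfc, whose groups also overlapped, is not printed and held no match to any motif searched, at a GC content of 58%. Of 33469 windows of that length 33.1% held a GC box and 37.5% a CCAAT box. Their GC content was 48.0% for Pdgfra, 62.0% for Pdgfb and 60.0% for Pdgfd and Pdgfa, against a median of 51.7% over all windows. A match is a description of the letters and not of a bound site.

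Ratios taken within a library do not depend on a scaling factor of that library. The level of Pdgfra over that of Pdgfrb was 3.06, 2.83 and 3.22 in ES and 2.53, 2.39 and 2.37 in SCI, so alpha exceeded beta in every library, and by more in every ES library. The genes of ligands that bind the alpha receptor as homodimers of A or C chains, summed over Pdgfra, gave 0.797 ± 0.0401 in ES and 0.664 ± 0.0283 in SCI. Pdgfb and Pdgfd summed over Pdgfrb gave 1.43 ± 0.158 in ES and 1.16 ± 0.0361 in SCI. Neither of these ratios overlapped between groups, beside 56.5% of all single genes tested that were apart in either direction. No such share was computed over ratios of genes. These ratios are built from the values that chose the genes, so nothing is read from their separation. Pdgfrl over Pdgfrb was 0.668 ± 0.0319 in ES and 2.10 ± 0.112 in SCI, so the receptor-like gene lay below the beta receptor gene in ES and above it in SCI.

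**Figure D3:**
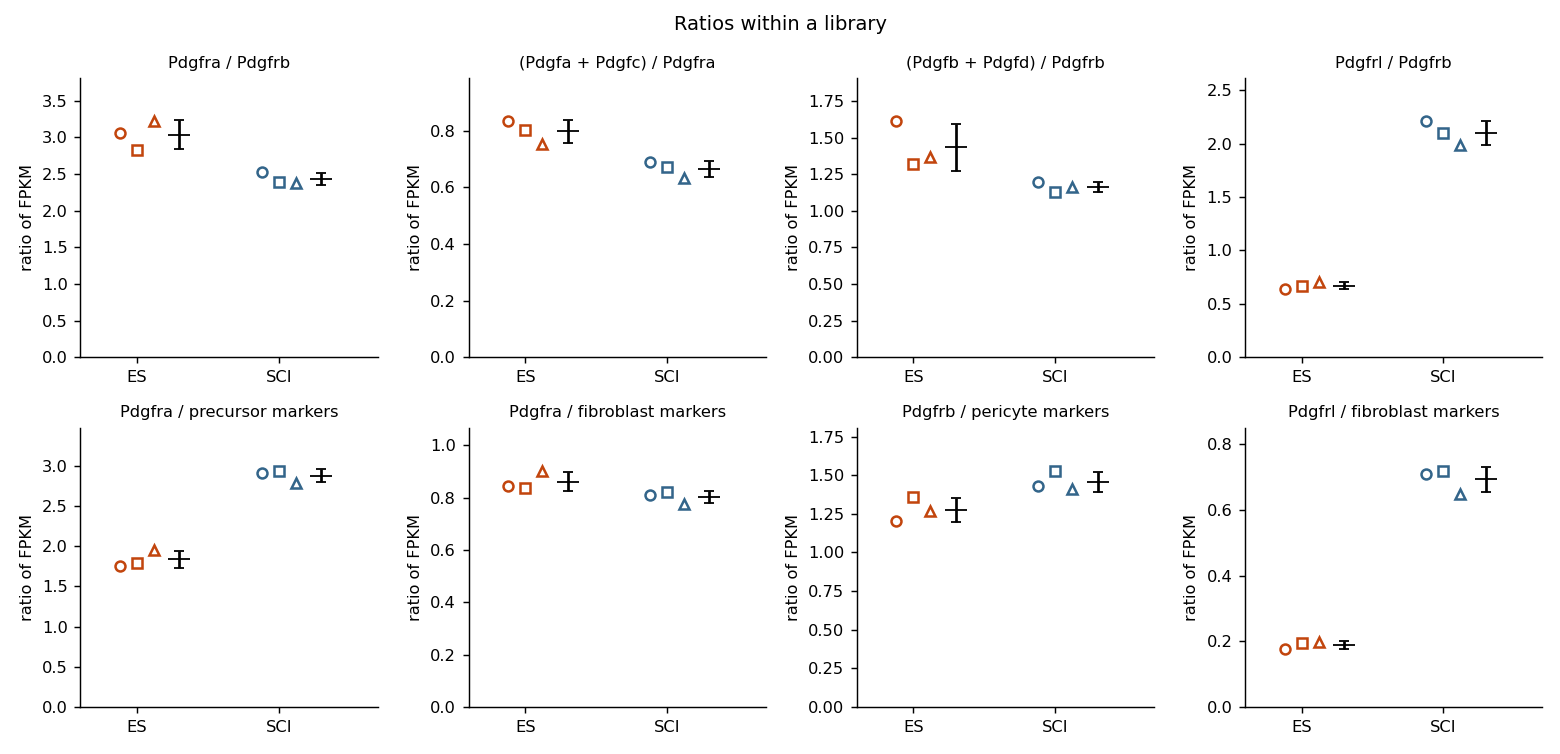
Each panel plots a ratio of FPKM values within a library (vertical axis, from 0) for ES and SCI, with circles, squares and triangles for replicates 1, 2 and 3 and the mean and SD beside them; marker lists enter as their geometric mean. Pdgfra over precursor markers is lower in every ES library (mean 1.84 in ES, 2.88 in SCI), whereas Pdgfra over fibroblast markers is slightly higher (0.861 in ES, 0.802 in SCI).

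Marker lists of the cell types named above did not all move in 1 direction. Whether the listed genes were made by the same cells as the PDGF genes was not tested. Of 15 tested oligodendrocyte precursor markers 9 rose, 2 fell and 4 did not pass, beside 17.4% of all genes called higher and 27.6% lower, with a median log2 change of 0.31, and their summed level was 443 to 456 FPKM in ES and 327 to 337 in SCI. Olig1 and Olig2, transcription factors of the lineage, rose 1.81-fold and 1.67-fold (limma adjusted p = 8.28e-06 and 4.69e-05), and Gpr17, a receptor of differentiating precursors, was at 42.3 ± 2.13 FPKM in ES and 20.2 ± 2.11 in SCI. Cspg4, which encodes the NG2 proteoglycan of precursors and pericytes, did not pass, with a log2 change of -0.04. C1ql1 and Bmp4 were the markers that fell. Of 13 fibroblast and meninges markers 10 fell and 3 rose, with a median of -0.30 and a summed level of 1194 to 1205 FPKM in ES and 1423 to 1440 in SCI. Col3a1, a fibrillar collagen, fell to 0.801 of its SCI level, and the transcription factor gene Foxc1 to 0.563. Postn, Thy1 and Dpt were the markers that rose, and Dpt missed the call with libraries brought to 1 total and without ES replicate 3.

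Of 11 pericyte markers 7 fell and 4 did not pass, beside 27.6% of all genes called lower. After quantile normalization, centring on the median or without SCI replicate 3, 4 fell and 1 rose. The list had a median of -0.26 and a summed level of 172 to 175 FPKM in ES and 238 to 243 in SCI. Rgs5, a regulator of G protein signalling typical of pericytes, was at 32.1 ± 0.0192 FPKM in ES and 60.3 ± 2.89 in SCI. Vtn, vitronectin, was at 21.6 ± 1.38 FPKM in ES and 53.9 ± 1.60 in SCI, and Notch3, a receptor of mural cells, fell to 0.489 of its SCI level. Of 9 smooth muscle markers 8 fell, with a median of -0.60, and the sum was 127 to 128 FPKM in ES and 196 to 211 in SCI. Myh11 and Acta2, contractile genes, fell to 0.315 and 0.392 of their SCI levels. Of 10 endothelial markers 8 fell, with a median of -0.43 and a sum of 186 to 190 FPKM in ES and 243 to 249 in SCI. Vwf and Tek, of endothelium, fell to 0.507 and 0.506 of their SCI levels, and Cldn5 was listed at 0 in all 6 libraries. No marker of these 3 vessel lists was called higher as reported, although 1 smooth muscle marker was after quantile normalization or centring on the median, besides the pericyte marker under the settings above.

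Set against marker lists, Pdgfra and Pdgfrb were lower or higher in ES depending on the list, and Pdgfrl was set against the fibroblast and meninges list only. Over the geometric mean of the precursor markers, Pdgfra was 1.75, 1.80 and 1.96 in ES and 2.91, 2.94 and 2.79 in SCI. Over the fibroblast and meninges markers it was 0.845, 0.836 and 0.903 in ES and 0.811, 0.820 and 0.775 in SCI. Pdgfra was thus lower relative to the geometric mean of the precursor markers and slightly higher relative to that of the fibroblast markers. The precursor mean joins 9 markers that rose with 4 that did not pass and 2 that fell. Ratios of ES over SCI were 0.971 for Cspg4, 0.944 for Ptprz1, 0.868 for Sox6 and 1.48 for Pcdh15, which did not pass. They were 0.730 for C1ql1 and 0.610 for Bmp4, which fell, and 0.849 for Pdgfra. Pdgfrb over the pericyte markers was 1.28 ± 0.0795 in ES and 1.46 ± 0.0644 in SCI, and over the smooth muscle markers 1.43 ± 0.114 in ES and 1.10 ± 0.0714 in SCI. Over the fibroblast and meninges markers Pdgfrb was 0.284 ± 0.00998 in ES and 0.330 ± 0.0113 in SCI. Pdgfb over the endothelial markers was 0.729 ± 0.0528 in ES and 0.600 ± 0.0196 in SCI. Pdgfrl over the fibroblast and meninges markers was 0.189 ± 0.0116 in ES and 0.693 ± 0.0383 in SCI, so its difference was nearly as large as in FPKM. In bulk tissue fewer cells of a type and less RNA per cell cannot be told apart, and the part of these marker groups in the values of the PDGF genes was not tested.

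Genes that process or bind PDGF changed in both directions. Of 12 tested 4 rose and 6 fell, beside 17.4% and 27.6% of all genes, with a median log2 change of -0.08, or 0.01 after centring on the median. Nrp1, a coreceptor that binds several growth factors, was at 13.6 ± 0.0995 FPKM in ES and 27.9 ± 0.364 in SCI (limma adjusted p = 4.12e-06). Pcsk5, a proprotein convertase of the furin type, was at 1.23 ± 0.0867 FPKM in ES and 4.74 ± 0.117 in SCI (limma adjusted p = 1.98e-05). Furin itself rose, with a log2 change of 0.22. Plat, tissue plasminogen activator, which frees the active C-chain dimer, fell (log2 change -0.28), and Plau, urokinase, which acts on the D chain, rose (0.68). A2m, a plasma protein that binds PDGF, rose 1.57-fold, and Lrp1, an endocytic receptor and partner of the beta receptor, and Sparc, a matrix protein that binds B chains, fell to 0.764 and 0.830 of their SCI levels.

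Of 31 intracellular signalling genes tested 9 rose, 9 fell and 13 did not pass, with a median of -0.07, beside 17.4% of all genes called higher and 27.6% lower. The split was 11 and 5 after centring on the median (list median 0.02), 5 and 15 with libraries brought to 1 total, and 8 and 5 without SCI replicate 3. Fyn, a Src-family kinase that is also needed in myelinating cells, had the largest log2 change of the list and was at 82.4 ± 10.5 FPKM in ES and 44.6 ± 4.26 in SCI (limma adjusted p = 0.000944). Ptprj, a receptor phosphatase that acts on the beta receptor, rose 1.29-fold, and Nck1, an adaptor, and Hras rose 1.51-fold and 1.24-fold. Plcg1, phospholipase C gamma, which docks on active receptors, fell to 0.832 of its SCI level, and Cbl, a ubiquitin ligase that ends receptor signalling, fell with a log2 change of -0.59. The adaptor genes Grb2 and Shc1 did not pass, with log2 changes of 0.15 and -0.07.

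Of 18 early genes that growth factors induce in cultured cells, 4 rose, 6 fell and 8 did not pass, near the 17.4% and 27.6% of all genes, with a median of -0.05, or 0.04 after centring on the median. Fos and Egr1 rose 1.45-fold and 1.37-fold, and Ptgs2, cyclooxygenase 2, rose with a log2 change of 0.64. Egr2 fell with a log2 change of -0.80 and Ier3 to 0.689 of its SCI level. Jun, Ccl2, Myc and Srf also fell, Srf losing its call under quantile normalization, centring on the median and without ES replicate 2. Egr2 is also a Schwann cell factor. Of 9 Schwann cell markers 7 fell and 2, Sox10 and Ngfr, rose, and Sox10 is also among the precursor markers that rose. The summed level of the Schwann cell markers was 832 to 839 FPKM in ES and 1475 to 1496 in SCI. The part of that group in the value of Egr2 was not tested.

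Among the other class III receptor kinases, which share the domain plan of the PDGF receptors, and their ligands, 1 of 7 rose and 4 fell (median -0.30), beside the same 17.4% and 27.6%. Csf1r, the kinase of microglia and macrophages, was at 178 ± 2.69 FPKM in ES and 105 ± 0.728 in SCI, and its ligand gene Csf1 at 30.4 ± 0.314 and 37.5 ± 0.622 FPKM. Kit was at 3.87 ± 0.442 FPKM in ES and 7.85 ± 0.478 in SCI, and its ligand gene Kitlg at 3.69 ± 0.348 and 5.42 ± 0.261 FPKM. Flt3, a kinase of blood cell precursors, did not pass, with a log2 change of -0.16. Beside Csf1r, 8 of 10 macrophage and microglia markers rose, and their part in its value was not tested.

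**Figure D4:**
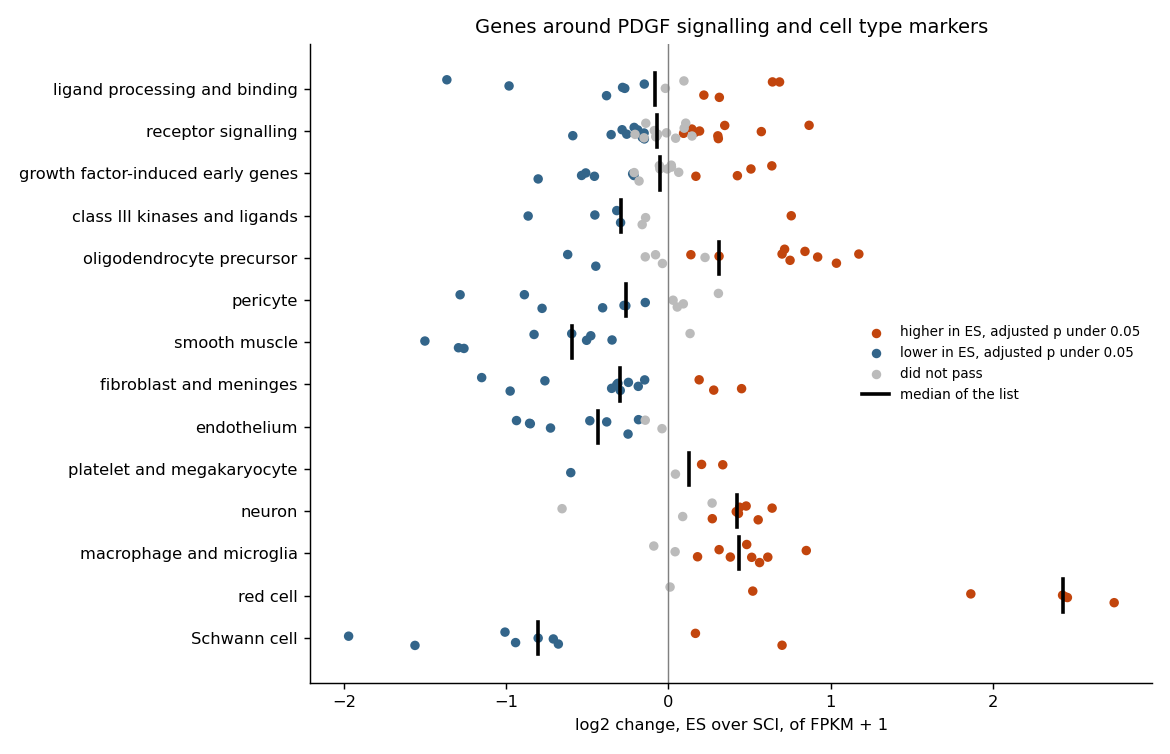
Each point is the log2 change, ES over SCI, of log2(FPKM + 1) for a tested gene of the list named on the vertical axis, coloured by the call of the limma test, and a black bar marks the list's median. No point of the pericyte, smooth muscle and endothelial lists is called higher, whereas the oligodendrocyte precursor list has 9 called higher and 2 lower.

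The genes whose profile over the 6 libraries was closest to a receptor gene were taken by the root mean square distance between log2(FPKM + 1) values centred on each gene's own mean, among 12698 genes of at least 1 FPKM on average. For Pdgfra they were Fam49a, Irak1, a kinase of interleukin 1 receptor signalling, and Itprid2, at distances of 0.011, 0.016 and 0.019. For Pdgfrb they were Pyroxd2, Aldh6a1, a mitochondrial dehydrogenase, and Zfp462, at 0.017, 0.018 and 0.025. For Pdgfrl they were Ncmap, a protein of Schwann cell myelin that is also on the Schwann cell list, Tctn3, of the ciliary transition zone, and Cxcl13, a B cell chemokine, at 0.067, 0.067 and 0.072. Ncmap was at 8.34 ± 0.858 FPKM in ES and 35.7 ± 3.99 in SCI, close to Pdgfrl in level as well as in change. Tctn3 was listed at 0 in the 3 ES libraries and stood at 2.93, 3.06 and 2.88 FPKM in SCI. The distances describe 6 libraries of 2 groups and say nothing of shared control.

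**Figure D5:**
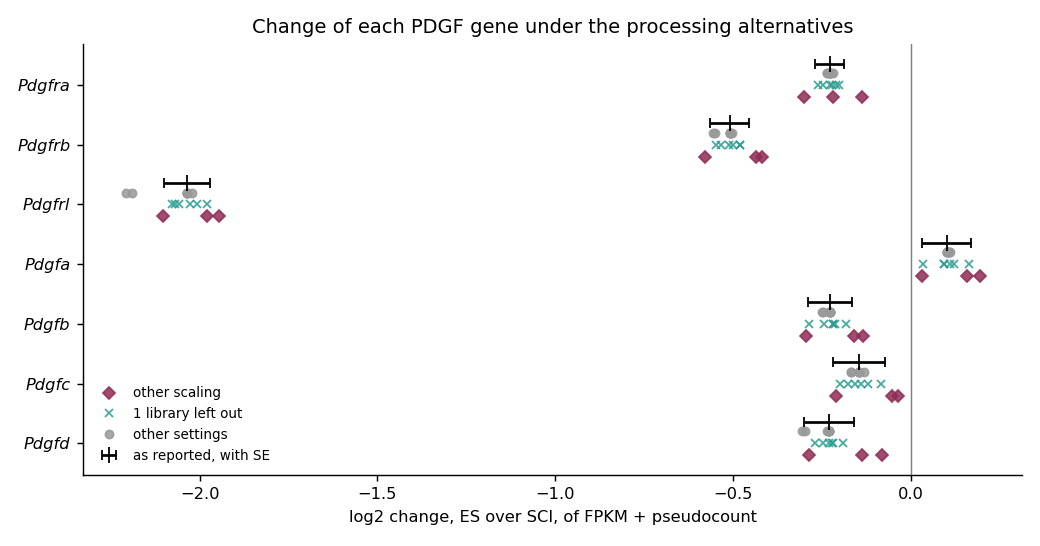
Points mark the log2 change, ES over SCI, of each PDGF gene (horizontal axis) under each processing alternative, and the black mark with its bar is the value as reported with its SE. Pdgfrl stays between -2.21 and -1.94 and Pdgfrb between -0.58 and -0.42, while Pdgfc reaches -0.04 and Pdgfd -0.08 under other scalings.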

How the data were processed

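Poly(A) RNA of 6 spinal cord libraries, 3 ES and 3 SCI by their titles, was analysed from 2 deposited tables. Per the labels' protocols, 1 ug of total RNA was made into stranded paired-end libraries. The tools given in the submitters' processing notes are HISAT and StringTie, without versions and without their order. The authors deposited FPKM per gene and transcript, writing 0.0001 in place of 0, and from the values each gene's FPKM is the length-weighted sum of its transcripts over a fixed length (within 1% in 100% of 13305 genes checked). Their fold column is the ratio of mean FPKM in ES to SCI, their log2 column its log2, and features they marked as significant have a p-value under 0.05 and a log2 ratio of at least 1 in size, per the file headers and values; no source used here names the test behind the p-value.

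Because FPKM values are not whole reads, log2(FPKM + 1) was fitted with limma 3.58.1 (R 4.3.3, with trend, two-sided) over 15750 genes with a mean of at least 0.5 FPKM, with Benjamini-Hochberg adjustment over all of them. The fit was tested on simulated data. No batch is given in the labels. The members, gene lists and tests were chosen with earlier results of these data known, so no list is independent evidence; the ratios within libraries were chosen after values were seen. Counts of list members adjusted over the list alone are not given. Besides the 7 PDGF genes, the rule took up to 4 genes per list by smallest p, members against their list's direction, and the 3 closest profiles of each receptor gene. Other list genes named, such as Plat, Sparc, Cbl, Ccl2, Myc, Srf, Cspg4 and those that did not pass, were chosen after their values were seen, for their known roles. Lists covered ligand processing and binding, receptor signalling, early genes, class III kinases, and markers of oligodendrocyte precursors, pericytes, smooth muscle, fibroblasts and meninges, endothelium, platelets, neurons, macrophages and microglia, red cells and Schwann cells. Levels have no error other than the spread between libraries and the estimated counting error. Protein sequences were not used here.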

Additional observations from a re-analysis of the deposited data

How the results depend on the processing

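Across 16 alternatives (pseudocounts of 0.1 and 0.01, no filter or a mean of 2 FPKM, 3 other scalings, no trend, array quality weights, the replicate number as a block, and leaving out each library in turn) each PDGF gene kept the sign of its log2 change. The number of the 7 past the threshold, which only restates the values that chose the genes, was 5 in the fit as reported, 3 after quantile normalization and 3 after centring on the median, where Pdgfb and Pdgfd were no longer called, and 3 to 4 with 1 library left out. It was 3 without ES replicate 2, ES replicate 3 or SCI replicate 2. With the replicate number as a block 4 were called, without Pdgfd, and 6317 of all genes were called, against 7088. The numbers do not pair the libraries, since deviations of same-numbered libraries correlated at -0.0292 to -0.0261 and no library correlated best with its own number. Some libraries of different numbers did correlate positively. The values were 0.0760 for ES 1 with SCI 2, 0.0783 for ES 2 with SCI 3 and 0.0796 for ES 3 with SCI 1. All other pairs were negative, and a block of the positive pairs was not tried. Of all 15750 genes tested, 7088 were called as reported, 6671 after quantile normalization and 6996 after centring on the median. With 1 library left out 5916 to 6416 genes were called. Across all alternatives 5916 to 7663 were called, with 12868 to 21710 genes tested. The lists of ligand processing, signalling, early and class III genes had 9 to 10, 13 to 20, 9 to 12 and 4 to 5 called, within 1.5 times of the reported totals, as had the marker lists. The counts by direction moved more for signalling and pericyte genes, as given beside them, and for Schwann cell markers, of which 1 rose with libraries brought to 1 total, with the block, and without ES replicate 1 or 2 or SCI replicate 1 or 2. Transcript shares taken over the gene value kept their sign; for the 3294-base form of Pdgfrb the difference, ES minus SCI, was 10.5 percentage points in place of 6.75. Depth limits Pdgfrl in ES and Pdgfd, with fewer than 250 read pairs per library by the estimate. Pdgfc had an estimated 214, 224 and 262 pairs in ES replicates 1 to 3 and 261 to 319 in SCI.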

Other observations

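Other cells that release PDGF are platelets and macrophages. The counts of the lists below stand beside 17.4% of all genes tested that were called higher and 27.6% called lower. Of 4 tested platelet and megakaryocyte genes, of 10 listed, 2 rose and 1 fell, with a median log2 change of 0.12. Without any 1 library other than ES replicate 3, 1 rose and 1 fell, and without SCI replicate 1 the median was -0.03. Pf4, platelet factor 4, made most of the summed level of 205 to 215 FPKM in ES and 179 to 193 in SCI, while the platelet genes Gp9, Gp5 and Gp6 stood below 0.1 FPKM on average in each group and Ppbp was listed at 0 in SCI. Itga2b, an integrin chain of platelets, was at 1.44 ± 0.237 FPKM in ES and 2.70 ± 0.255 in SCI. Pf4 is also made by macrophages, and of 10 macrophage and microglia genes 8 rose (median 0.43), with a sum of 2097 to 2154 FPKM in ES and 1810 to 1857 in SCI. Of 7 red cell genes 6 rose (median 2.43), and their sum was 3089 to 3299 FPKM in ES and 538 to 566 in SCI. Of 10 neuron genes 7 rose (median 0.42), with a sum of 472 to 490 FPKM in ES and 375 to 383 in SCI. Pdgfa, which neurons also make, was 0.789 ± 0.0212 of the geometric mean of the neuron markers in ES and 0.945 ± 0.0945 in SCI.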
